A study of Homo sapiens with 8 samples.

Results

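The genes described here are the transcriptional arm of the Hippo pathway: the coactivators YAP1 and WWTR1 (the gene for TAZ), the DNA-binding factors TEAD1, TEAD2, TEAD3 and TEAD4, and 4 widely used target genes, CTGF (CCN2), CYR61 (CCN1), AMOTL2 and LATS2. They were taken by name from the count table, so 10 of its 35238 gene symbols were followed, and all 10 were among the 15085 genes with enough counts to be tested. Bulk RNA sequencing was performed on MP38, an established BAP1-mutant uveal melanoma cell line, with 2 libraries in each of 4 groups. The control cells received 0.1% DMSO for 24 h, and the treated cells received 40 nM romidepsin, 40 nM quisinostat or 1200 nM mivebresib for the same 24 h. Romidepsin, a cyclic depsipeptide, and quisinostat, a hydroxamate, inhibit histone deacetylases (HDACs), whereas mivebresib blocks the acetyl-lysine reading bromodomains of the BET proteins. The study asked how the responses to HDAC and BET inhibition differ in uveal melanoma, and here the question is put to the YAP/TEAD genes.

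In the Hippo pathway the kinases MST1/2 (genes STK4 and STK3) and LATS1/2 phosphorylate YAP and TAZ, which keeps them out of the nucleus. When the kinases are off, YAP and TAZ enter the nucleus and bind TEAD factors, which recruit them to enhancers and promoters of genes such as CTGF and CYR61. LATS2 and AMOTL2 are themselves targets and restrain YAP, which closes a feedback loop. Because much of this control acts on the proteins, mRNA levels as measured here do not report YAP activity, localization or TEAD binding.

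The libraries held 28483235 to 29359024 counts each. Levels are given as CPM, the counts of a gene scaled to a common library total, after TMM scaling, which corrects those totals for differences in composition, and changes as log2 fold changes (log2 FC) with their standard error (SE) from edgeR. A gene is said to pass, and to rise, fall or differ, where edgeR's quasi-likelihood test gave an adjusted p (Benjamini-Hochberg, over all genes tested) under 0.05. The libraries of a group came from separate wells of the same line, so p-values measure the spread between wells. The control pair stood further apart than the pairs of the drug groups, with a chi-square per degree of freedom between them of 58.1 against 9.52 to 9.79, and calls of the 10 genes that change without a control library are named with the library. TMM scaling matters most for quisinostat: with library totals alone the middle gene of the table had a log2 FC of 0.20 instead of -0.0036, so changes with quisinostat are relative to this shift. In bulk RNA a lower level cannot be told apart from fewer cells that express the gene.

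The promoters were searched for the short sequence that TEAD factors recognize. TEAD factors recognize the element GGAATG, or CATTCC on the opposite strand, and both were searched in windows of 300 bases around the RefSeq gene starts on GRCh38.p14. A window was found for 7 of the 10 genes, and 14% of all 35116 such windows held at least 1 match. The CTGF window held 3, which 45 windows (0.128%) reached or passed. Its 250 bases upstream of the start, chr6:131951373-131951622 on the minus strand, are shown because this textbook TEAD target rose with both HDAC inhibitors, with GGAATG in capitals:

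CTGF: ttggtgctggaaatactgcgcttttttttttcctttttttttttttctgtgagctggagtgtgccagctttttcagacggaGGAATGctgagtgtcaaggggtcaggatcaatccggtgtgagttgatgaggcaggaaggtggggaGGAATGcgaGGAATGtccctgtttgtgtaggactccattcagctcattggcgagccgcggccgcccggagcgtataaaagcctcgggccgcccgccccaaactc

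These matches began at positions -169, -104 and -95 from the start. The windows of YAP1, AMOTL2 and LATS2 each held 1 match, at -162, -69 and 10, and 30 bases around each are given with the match in capitals to compare the flanks.

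YAP1, chr11:102110273-102110302, plus strand: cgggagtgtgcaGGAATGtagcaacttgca
AMOTL2, chr3:134374499-134374528, minus strand: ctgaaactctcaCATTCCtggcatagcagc
LATS2, chr13:21061560-21061589, minus strand: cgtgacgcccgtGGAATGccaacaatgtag

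The AMOTL2 match lay in an annotated exon and in the opposite orientation to the gene. The windows of WWTR1, TEAD2 and TEAD3 held no match, and CYR61, TEAD1 and TEAD4 had no window in the table. A match is a run of letters and does not show binding.

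In control cells the target genes CYR61 and CTGF were among the most highly expressed genes per kb of exon. CYR61 stood at 179 CPM per kb, rank 156 of 14300 tested genes with a known length, and CTGF at 119, rank 294. The coactivator YAP1 followed at 42 ± 1.75 CPM per kb (SD, n = 2) and TEAD1, the main TEAD gene of these cells, at 32.4 ± 0.357. AMOTL2 (23), WWTR1 (17.5), TEAD4 (13.4), LATS2 (11.8) and TEAD2 (7.52) came next, and TEAD3 was lowest at 2.79 CPM per kb, rank 8112. These levels depend on the length used: with the longest transcript in place of all exons, WWTR1 stood at 29.2 CPM per kb, still below TEAD1 at 39.2 and AMOTL2 at 30.4.

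None of the 10 genes passed in the same direction with all 3 drugs. CTGF and CYR61 came closest, with every treated library above both controls. By edgeR, CTGF missed the threshold narrowly with mivebresib (adjusted p = 0.0581) and CYR61 with quisinostat (adjusted p = 0.056). With romidepsin 4 genes rose (TEAD1, CTGF, CYR61, LATS2) and 2 fell (TEAD2, AMOTL2), where 15.2% of all tested genes rose and 15.8% fell. With quisinostat 1 gene rose (CTGF) and 6 fell (YAP1, WWTR1, TEAD1, TEAD4, AMOTL2, LATS2), where 28% of all tested genes rose and 25.1% fell. With mivebresib 1 gene rose (CYR61) and 4 fell (YAP1, WWTR1, TEAD2, TEAD4), where 22.2% rose and 24.1% fell. The shares of risers with romidepsin and of those that fell with quisinostat and mivebresib were thus above the background, while the single risers with quisinostat and mivebresib were below it. TEAD3 passed with no drug, and TEAD1 and LATS2 rose with romidepsin and fell with quisinostat. The median log2 FC of the 10 genes was 0.0096 with romidepsin, -0.37 with quisinostat and -0.13 with mivebresib, beside -0.012, -0.0036 and 0.0067 over all tested genes. None reached the study's fold threshold, an absolute log2 FC above 1.5 with an adjusted p under 0.05, which 4.08%, 12.2% and 8.32% of all tested genes reached with romidepsin, quisinostat and mivebresib. With library totals in place of TMM, 4 rose and 1 fell with romidepsin, 2 rose and 5 fell with quisinostat, and 2 rose and 4 fell with mivebresib. Of all 15085 tested genes, library totals gave 2787 rises and 1700 falls with romidepsin, 5625 and 2144 with quisinostat and 3499 and 3486 with mivebresib. On the authors' quantile-normalized score, tested with limma without taking logs, 1 gene rose and 0 fell with romidepsin, 0 fell with quisinostat and 1 fell with mivebresib.

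**Figure D1:**
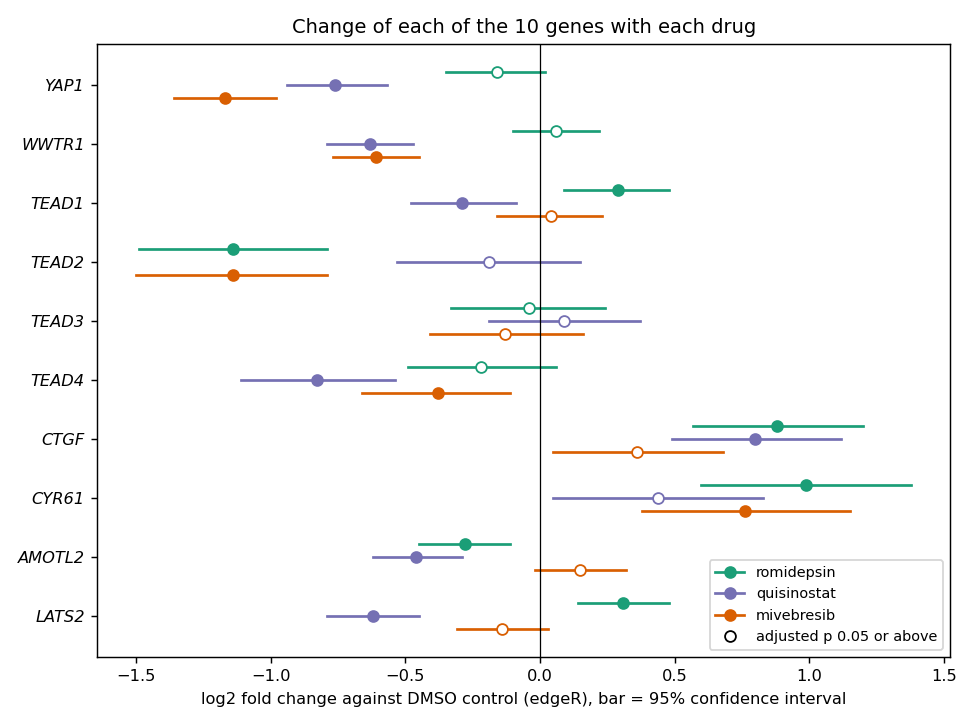
log2 fold change of the 10 genes against the DMSO control (x axis) with romidepsin, quisinostat and mivebresib. Points are edgeR estimates, bars are 95% confidence intervals, and open points did not pass an adjusted p of 0.05. YAP1 and WWTR1 lie left of 0 with quisinostat and mivebresib, and CTGF and CYR61 lie right of 0 with every drug, though each has 1 open point.

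YAP1 and WWTR1, the coactivators, fell with quisinostat and with mivebresib and passed in neither direction with romidepsin. YAP1 (chr11:102110461-102233423, plus strand, GRCh38) held 272 and 257 CPM in the control libraries, 237 and 235 with romidepsin, 153 and 160 with quisinostat and 113 and 122 with mivebresib. The groups did not overlap and ran in this order from highest to lowest. Its log2 FC was -0.76 (SE 0.08, adjusted p = 0.000117) with quisinostat and -1.17 (SE 0.08, adjusted p = 1.7e-05) with mivebresib, or 0.592 and 0.444 times the control level. With romidepsin the log2 FC of YAP1 was -0.16, with a 95% interval of -0.35 to 0.02 (adjusted p = 0.161).

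WWTR1 (chr3:149517235-149736714, minus strand) was at 147 and 146 CPM in the control libraries, 153 and 153 with romidepsin, 95.4 and 94.6 with quisinostat and 97.6 and 94.8 with mivebresib. The quisinostat and mivebresib libraries overlapped each other and lay well below the rest. The log2 FC was -0.63 (SE 0.07, adjusted p = 0.000142) with quisinostat and -0.61 (SE 0.07, adjusted p = 0.000207) with mivebresib. With romidepsin it was 0.06, with an interval of -0.10 to 0.22 (adjusted p = 0.541). Both coactivators kept these calls under every edgeR, DESeq2 and limma-voom alternative on the counts. Per kb, their summed level was 60.7 and 58.1 CPM in the control libraries, 55.9 and 55.5 with romidepsin, 35.6 and 36.7 with quisinostat and 29.5 and 30.6 with mivebresib. The CPM ratio of YAP1 to WWTR1, on which scaling has no effect, was 1.84 and 1.75 in the control libraries and lowest with mivebresib, at 1.16 and 1.28. With romidepsin it was 1.55 and 1.53 and with quisinostat 1.6 and 1.7, all below both control libraries.

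The summed level of 6 melanocytic markers (MITF, PMEL, MLANA, TYR, DCT, SOX10) also lay lower in the groups where YAP1 and WWTR1 fell. It was 1209 to 1336 CPM in the control libraries, 1197 to 1215 with romidepsin, 814 to 879 with quisinostat and 613 to 624 with mivebresib. MITF, the lineage factor of melanocytes (log2 FC -1.39 and -1.47), MLANA (-1.05 and -1.33) and SOX10 (-0.92 and -1.93) fell with quisinostat and mivebresib. SOX10 also fell with romidepsin (-0.39, adjusted p = 0.0141), where YAP1 and WWTR1 did not pass, and MITF was at -0.22 there (adjusted p = 0.0587). PMEL, the most abundant, was at -0.01 with quisinostat (adjusted p = 0.957) and fell with mivebresib (-0.51, adjusted p = 0.0252), and TYR passed with neither. DCT, a pigment enzyme, was near 0 in every library, at 0 to 5 counts, so it does not mark this line. The part of the lineage markers in the YAP1 and WWTR1 result was not tested.

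**Figure D2:**
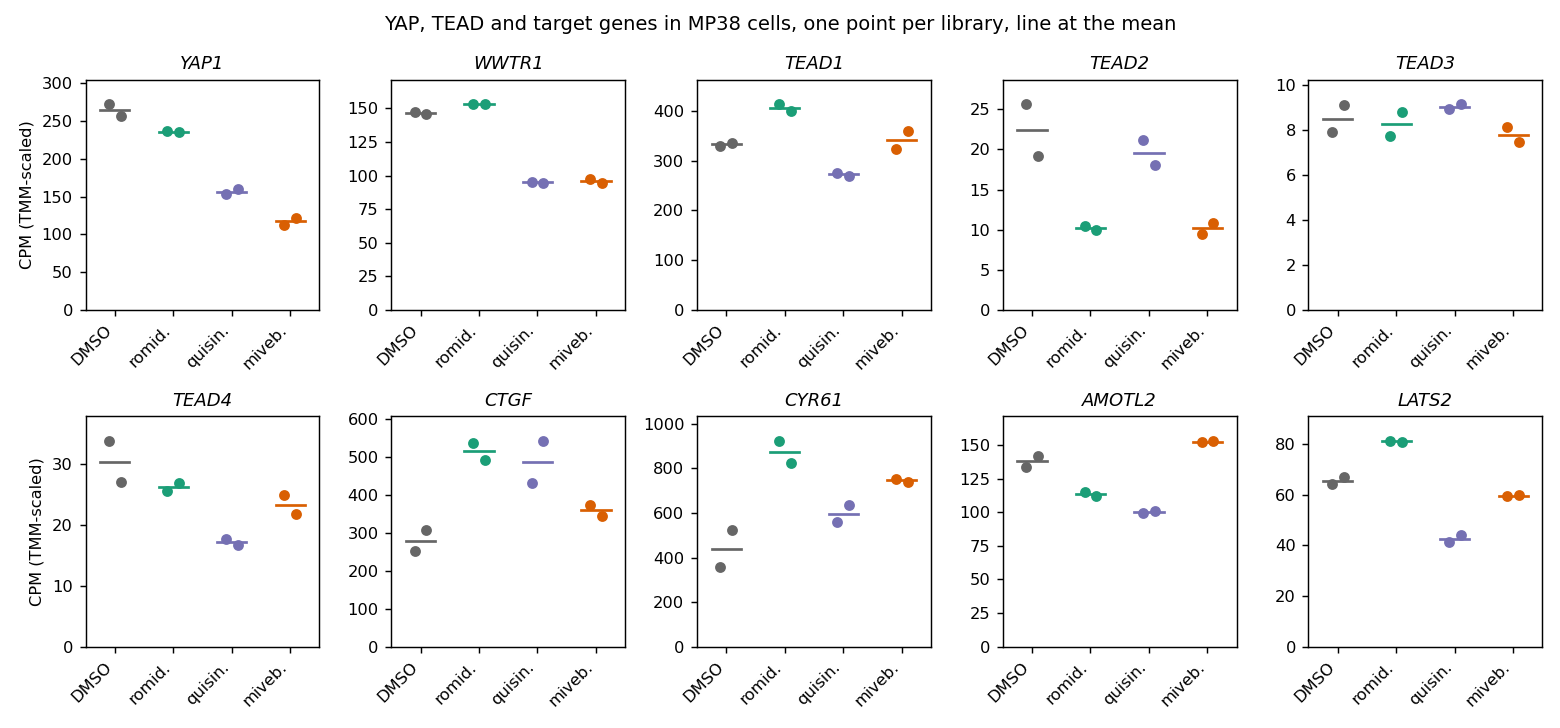
TMM-scaled CPM (y axis, from 0) of the 10 genes in each library, with a line at the mean of each group of 2. YAP1 steps down from 272 and 257 CPM in DMSO to 113 and 122 with mivebresib, while the spread between the DMSO libraries is widest for CYR61, at 356 and 525 CPM.

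The 4 TEAD genes, which encode the DNA-binding partners, each had a different pattern. TEAD1 (chr11:12674591-12944483, plus strand) held 330 and 335 CPM in the control libraries, 413 and 400 with romidepsin, 275 and 270 with quisinostat and 323 and 359 with mivebresib. The romidepsin libraries were above and the quisinostat libraries below all others. TEAD1 had a log2 FC of 0.29 (SE 0.09, adjusted p = 0.0339) with romidepsin, -0.29 (SE 0.09, adjusted p = 0.0205) with quisinostat and 0.04, with an interval of -0.16 to 0.23, with mivebresib. The quisinostat call is lost with library totals in place of TMM, where the log2 FC was -0.09. Both calls are also lost without either quisinostat library, and the romidepsin call without either romidepsin library.

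TEAD2 (chr19:49340595-49362457, minus strand) fell to 0.454 times the control with romidepsin and to 0.453 times with mivebresib. Its libraries held 25.6 and 19.2 CPM in control cells, 10.4 and 9.92 with romidepsin, 21.2 and 18 with quisinostat and 9.51 and 10.8 with mivebresib. The control and quisinostat libraries overlapped, and so did the romidepsin and mivebresib libraries, well below them. The log2 FC was -1.14 with romidepsin (SE 0.15, adjusted p = 0.00113) and -1.14 with mivebresib (SE 0.16, adjusted p = 0.000487), and without either control library these values ranged from -0.89 to -1.34. With quisinostat the log2 FC was -0.19, with an interval of -0.53 to 0.15. Without control replicate 2 it was -0.39 and passed (adjusted p = 0.0192 in a range of 0.0192 to 0.975 over all alternatives). The annotation places CD37 and DKKL1 on the opposite strand of TEAD2, but they held 1 to 14 and 0 to 8 counts against 260 to 723 for TEAD2.

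TEAD4 (chr12:2959330-3040673, plus strand) was at 33.7 and 27.0 CPM in the control libraries, 25.5 and 26.8 with romidepsin, 17.7 and 16.6 with quisinostat and 24.9 and 21.7 with mivebresib. The quisinostat libraries were lowest, with a log2 FC of -0.83 (SE 0.12, adjusted p = 0.000653). With mivebresib the log2 FC was -0.38 (SE 0.12, adjusted p = 0.0306), and without control replicate 1 it was -0.21 and did not pass (adjusted p from 0.0016 to 0.189 over all alternatives). This mivebresib call was also lost without mivebresib replicate 2 and when any romidepsin or quisinostat library was left out. With romidepsin the log2 FC was -0.22, with an interval of -0.49 to 0.06. It passed without control replicate 2, where it was -0.37 (adjusted p = 0.0165 in a range of 0.0165 to 0.89).

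TEAD3 (chr6:35473597-35497076, minus strand), the rarest, held 7.44 to 9.13 CPM (207 to 287 counts) over all 8 libraries, and passed in none of the 6 comparisons between groups. Its log2 FC was -0.04 with romidepsin (interval -0.33 to 0.24), 0.09 with quisinostat (-0.19 to 0.37) and -0.13 with mivebresib (-0.41 to 0.16). Sequence shared between the TEAD genes is small: at most 1.08% of the 31-base words of a TEAD gene occur in another of the 10 genes.

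The mixture of TEAD messages therefore differed between groups while TEAD1 stayed the most abundant in every library. Per kb, TEAD1 made up 55.2% and 60.5% of the TEAD sum in the control libraries, 69.9% and 68.4% with romidepsin, 60.0% and 61.6% with quisinostat and 65.1% and 69.1% with mivebresib. TEAD2 made up 14.8% and 12% in control cells, 6.10% and 5.85% with romidepsin, 16.0% and 14.2% with quisinostat and 6.62% and 7.16% with mivebresib. TEAD4 made up 25.5% and 22.1% in the control libraries and 17.4% and 17.2% with quisinostat. The summed TEAD level was 58.1 and 53.9 CPM per kb in control cells, 57.4 and 56.9 with romidepsin, 44.5 and 42.6 with quisinostat and 48.2 and 50.5 with mivebresib. No test was made on these shares and sums.

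**Figure D3:**
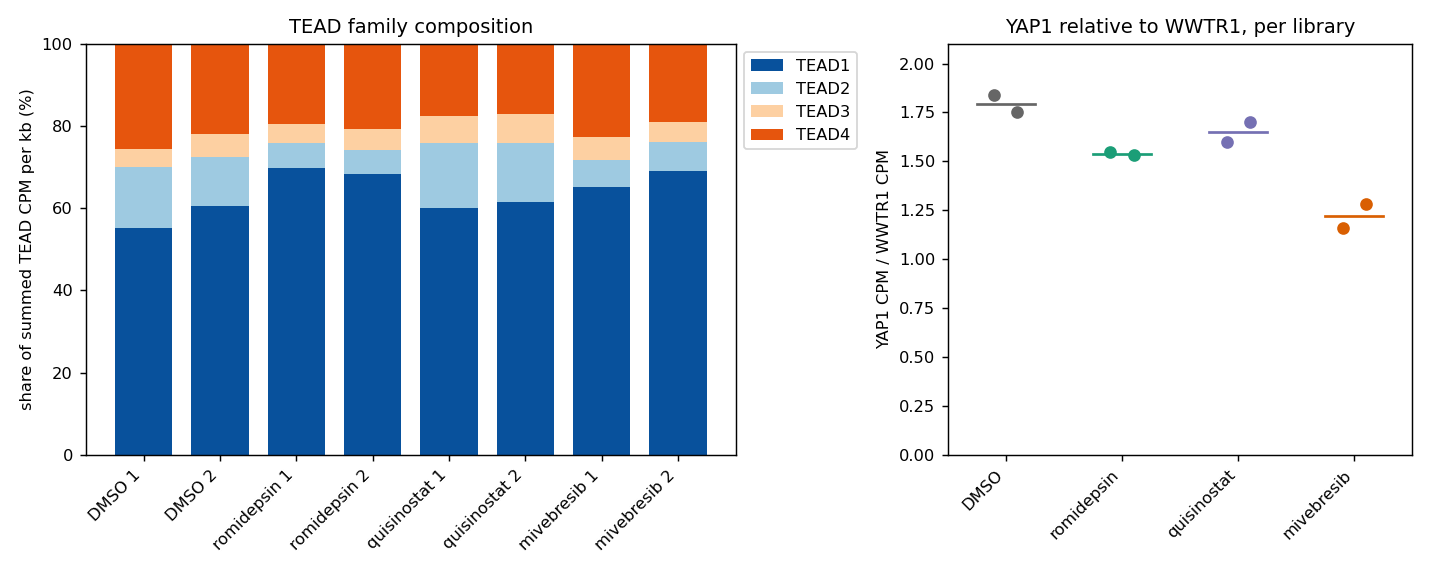
Left, share of each TEAD gene in the summed TEAD CPM per kb (y axis, %), 1 bar per library. TEAD1 holds 55.2% to 69.9% in every bar, and TEAD2 is narrower with romidepsin and mivebresib. Right, CPM ratio of YAP1 to WWTR1 in each library (points) with the group mean (line), lowest with mivebresib at 1.16 and 1.28.

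CTGF and CYR61 encode secreted matricellular proteins and are the classic readouts of YAP/TEAD transcription. Both rose with romidepsin, CTGF also with quisinostat and CYR61 also with mivebresib. CTGF (chr6:131948176-131951373, minus strand) held 251 and 306 CPM in the control libraries, 536 and 492 with romidepsin, 432 and 541 with quisinostat and 374 and 343 with mivebresib. All treated libraries were above both controls, and the romidepsin and quisinostat libraries overlapped. The log2 FC was 0.88 with romidepsin (SE 0.14, adjusted p = 0.00223) and 0.80 with quisinostat (SE 0.14, adjusted p = 0.0014), a rise to 1.85 and 1.75 times the control. With mivebresib it was 0.36, with an interval of 0.05 to 0.68 and an adjusted p of 0.0581. That value passed with DESeq2, with limma-voom, with library totals, with upper-quartile factors and with a filter at a mean of 5 CPM. It was 0.51 without control replicate 2 (adjusted p = 0.00712 in a range of 0.00712 to 0.241) and 0.23 without control replicate 1.

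CYR61 (chr1:85580761-85583962, plus strand), the most abundant of the 10, was at 356 and 525 CPM in the control libraries. It was at 923 and 825 CPM with romidepsin, 558 and 636 with quisinostat and 755 and 741 with mivebresib. Every treated library was above both controls, although the gap between the controls was wider than within each drug group. CYR61 had a log2 FC of 0.99 with romidepsin (SE 0.17, adjusted p = 0.00347) and 0.76 with mivebresib (SE 0.17, adjusted p = 0.00633). Without control replicate 1 these were 0.76 and 0.51, and without control replicate 2 they were 1.29 and 1.07, and all 4 passed. With quisinostat the log2 FC was 0.44, with an interval of 0.05 to 0.83 and an adjusted p of 0.056. It was 0.18 without control replicate 1 and 0.74 without control replicate 2, where it passed (adjusted p = 0.000188 in a range of 0.000188 to 0.264), as it did with DESeq2, limma-voom, library totals, upper-quartile factors and the filter at 5 CPM.

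CTGF and CYR61 are also made by fibroblasts and endothelium. Markers of those cells were low, and their sums followed mainly COL1A1 and KDR. Of 6 fibroblast markers the sum was 1.98 to 2.48 CPM in control cells, 4.23 to 5.46 with romidepsin, 8.43 to 10.9 with quisinostat and 1.28 to 1.76 with mivebresib. COL1A1, a collagen gene, was its largest part, at 1.42 and 1.64 CPM in control cells, and rose to 2.84 times the control with romidepsin (adjusted p = 0.00391) and 5.98 times with quisinostat (adjusted p = 6.77e-05). LUM, a fibroblast proteoglycan, held 0 or 1 count in every library. The sum of 4 endothelial markers was 0.602 to 0.913 CPM in control cells, 3.03 to 3.57 with romidepsin, 5.16 to 5.82 with quisinostat and 1.13 to 1.4 with mivebresib. Most of it was KDR, a VEGF receptor gene, which rose to 5.37 times the control with romidepsin (adjusted p = 0.000429) and 9.09 times with quisinostat (adjusted p = 2.12e-05). PECAM1 held 2 to 17 counts and VWF 3 to 10, and CDH5, the endothelial cadherin, was at 0 counts in all 8 libraries. The 4 immune markers summed to 61.2 to 83.2 CPM over all libraries, nearly all CD68, and CD3E, a T cell receptor chain, was at 0. The part of these markers in the CTGF and CYR61 results was not tested.

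Of the feedback targets, AMOTL2 fell with both HDAC inhibitors, while LATS2 rose with romidepsin and fell with quisinostat. AMOTL2 (chr3:134355874-134375479, minus strand) encodes an angiomotin-like scaffold that holds YAP in the cytoplasm. It was at 134 and 142 CPM in the control libraries, 115 and 112 with romidepsin, 99.2 and 101 with quisinostat and 152 and 153 with mivebresib. The HDAC inhibitor libraries were all below the controls and the mivebresib libraries above them. The log2 FC was -0.28 with romidepsin (SE 0.07, adjusted p = 0.0212), -0.46 with quisinostat (SE 0.07, adjusted p = 0.00103) and 0.15, with an interval of -0.02 to 0.32, with mivebresib. The romidepsin call was lost under 7 of 17 alternatives, among them library totals and leaving out any romidepsin or quisinostat library, and over all 17 the values were -0.30 to -0.20 (adjusted p = 0.0125 to 0.129). Some reads could also be ambiguous between genes: 2.57% of the 31-base words of AMOTL2 and 2.15% of those of YAP1 occur in other genes. For YAP1 the gene that shares most words is YAP1P1. For AMOTL2 it is the RPL39P5 pseudogene, which overlaps 187 bases of AMOTL2 exon on the same strand. RPL39P5 held 0 to 2 counts against 3136 to 4243 for AMOTL2.

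LATS2 (chr13:20973032-21061547, minus strand) encodes a kinase that phosphorylates YAP. Its libraries held 64.0 and 67.1 CPM in control cells, 81.1 and 80.9 with romidepsin, 41.1 and 44.2 with quisinostat and 59.3 and 59.8 with mivebresib. The groups did not overlap, with romidepsin highest and quisinostat lowest. LATS2 had a log2 FC of 0.31 with romidepsin (SE 0.07, adjusted p = 0.0159), -0.62 with quisinostat (SE 0.08, adjusted p = 0.000218) and -0.14, with an interval of -0.31 to 0.03, with mivebresib. The romidepsin call was lost without either romidepsin library and with only the 4 libraries of that comparison, at log2 FC values of 0.30 to 0.39 over all alternatives.

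Romidepsin and quisinostat were given at the same dose and time and were compared directly. In the paper's viability assays romidepsin was more potent than quisinostat in MP38 cells, so an equal dose is not an equal effect. At 40 nM, 7 of the 10 genes differed between them, where 35.6% of all tested genes did. Quisinostat was lower for LATS2 (log2 difference, quisinostat minus romidepsin, -0.93, SE 0.08, adjusted p = 0.000116) and WWTR1 (-0.69, SE 0.07, adjusted p = 0.000287). It was also lower for TEAD4 (-0.61), YAP1 (-0.59), TEAD1 (-0.58) and CYR61 (-0.55, adjusted p = 0.0349), and higher for TEAD2 (0.95, SE 0.15, adjusted p = 0.0023). The CYR61 difference did not pass under 8 of 17 alternatives, including library totals and leaving out any library of a drug group. CTGF differed by -0.08, with an interval of -0.39 to 0.23, and TEAD3 by 0.13, with an interval of -0.15 to 0.41. AMOTL2 differed by -0.17, with an interval of -0.34 to -0.01 and an adjusted p of 0.101, and passed without either control library and with only the 4 libraries compared.

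Mivebresib was used at 1200 nM, so its values beside the HDAC inhibitors are a comparison of these treatments and not of equal doses. It differed from romidepsin in 6 of the 10 genes, where 48.9% of all tested genes did, and from quisinostat in 7, where 57.7% did. Against romidepsin, YAP1 (log2 difference -1.01, SE 0.08, adjusted p = 3.1e-05), WWTR1 (-0.67), CTGF (-0.52), LATS2 (-0.44) and TEAD1 (-0.25) were lower with mivebresib, and AMOTL2 (0.43) was higher. For TEAD2 the interval of the difference was -0.37 to 0.36. Against quisinostat, TEAD2 (-0.95), CTGF (-0.44) and YAP1 (-0.42) were lower with mivebresib, and AMOTL2 (0.60), LATS2 (0.48), TEAD4 (0.44) and TEAD1 (0.32) were higher. WWTR1 differed from quisinostat by 0.02, with an interval of -0.14 to 0.18. CYR61 differed from romidepsin by -0.22 (interval -0.61 to 0.16) and from quisinostat by 0.32 (interval -0.06 to 0.71), and both passed without either control library and with only the 4 libraries compared (adjusted p from 0.0286 to 0.655 and from 0.00581 to 0.473 over all alternatives). The TEAD1 and TEAD4 differences from quisinostat were each lost under 4 of 17 alternatives, namely library totals and fits with a library of these 2 drugs left out. The CTGF difference was lost under 3 of 17 against quisinostat and 2 of 17 against romidepsin, all with a library left out, including mivebresib replicate 2. The TEAD1 difference from romidepsin was lost under 6 of 17 alternatives, including a replicate block.

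A longer list of 22 YAP/TEAD targets, which includes CTGF, CYR61, AMOTL2 and LATS2, held genes that rose and genes that fell with each drug. Of the 22, all tested, 8 rose and 2 fell with romidepsin, 6 rose and 7 fell with quisinostat and 4 rose and 4 fell with mivebresib. Over all tested genes 15.2% rose and 15.8% fell with romidepsin, 28% and 25.1% with quisinostat and 22.2% and 24.1% with mivebresib. The list's rises with romidepsin were above the background. Both its counts with quisinostat were near it, and its falls with romidepsin and both counts with mivebresib were below it. CTGF, CYR61 and LATS2 are among the risers with romidepsin. Of the 18 targets outside the 10 genes, 5 rose and 1 fell with romidepsin and 5 rose and 5 fell with quisinostat. Both of these quisinostat counts were near the background. With library totals in place of TMM, 7 of the 22 rose and 3 fell with quisinostat, where 5625 and 2144 of all 15085 tested genes did. The median log2 FC was 0.24 with romidepsin, -0.10 with quisinostat (0.096 with library totals) and -0.0047 with mivebresib. ANKRD1, a cardiac ankyrin repeat protein and a strong YAP target in other cells, was the only gene of the list whose rise passed with all 3. It held 25.2 and 23.1 CPM in the control libraries, 150 and 144 with romidepsin, 262 and 236 with quisinostat and 124 and 122 with mivebresib. All treated libraries were far above both controls, with log2 FC values of 2.61 (SE 0.09, adjusted p = 1.08e-05), 3.37 (SE 0.09, adjusted p = 6.49e-07) and 2.35 (SE 0.09, adjusted p = 1.52e-06). It was also the only gene of the list past the study's fold threshold with romidepsin, where 2 passed it with quisinostat and 4 with mivebresib. Of all tested genes, 4.08%, 12.2% and 8.32% passed it with romidepsin, quisinostat and mivebresib.

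Several other targets changed with mivebresib, and NUAK2 and RBMS3 moved the opposite way with an HDAC inhibitor. GADD45A, a growth arrest and DNA damage gene, was at 128 and 110 CPM in control cells and 393 and 380 with mivebresib (log2 FC 1.70, SE 0.10, adjusted p = 7.89e-06), beside 0.02 with quisinostat. With romidepsin it was 0.35 (adjusted p = 0.0291), a call lost under 6 of 17 alternatives, among them leaving out control replicate 2 or any romidepsin or mivebresib library (adjusted p from 0.00256 to 0.141 over all alternatives). NT5E, the ecto-enzyme CD73, rose with mivebresib (0.58, adjusted p = 0.012) from 703 and 965 to 1213 and 1284 CPM, a call lost without mivebresib replicate 2. AXL, a receptor tyrosine kinase, was low, with 38 and 39 counts in the control libraries and 15 and 8 with mivebresib (log2 FC -1.72, SE 0.34, adjusted p = 0.00339). NUAK2, a kinase, rose with romidepsin (0.77, adjusted p = 0.00705) and fell with mivebresib (-1.08, adjusted p = 0.00146). RBMS3, an RNA-binding protein gene, rose with quisinostat from 21 and 28 to 97 and 99 counts (1.81, adjusted p = 0.00156) and fell to 2 and 9 counts with mivebresib (-2.12, adjusted p = 0.00736).

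IGFBP3, which encodes a binding protein of insulin-like growth factors, was highest with quisinostat, at 200 and 212 CPM against 63.4 and 94.1 in control cells (log2 FC 1.39, SE 0.16, adjusted p = 0.000186). TGFB2, a growth factor, rose with romidepsin (1.39, adjusted p = 0.0124) and quisinostat (0.97, adjusted p = 0.0348) at only 9 to 30 counts in those libraries and the controls, and both calls were lost with DESeq2. FOXF2, a forkhead factor, fell with romidepsin (-0.84, adjusted p = 0.0068) and mivebresib (-0.70, adjusted p = 0.00899), calls lost without romidepsin replicate 1 and without mivebresib replicate 2. With quisinostat, ASAP1, an Arf GTPase-activating protein gene, fell from 597 and 606 to 437 and 435 CPM (-0.46, adjusted p = 0.0015). F3, the tissue factor gene, fell from 2.87 and 3.1 to 1.65 and 2.1 CPM with quisinostat (-0.67, adjusted p = 0.0157), a call lost with DESeq2, with library totals and without quisinostat replicate 1. CRIM1, PTPN14 and ARHGEF17, named after their values were seen, passed with no drug.

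**Figure D4:**
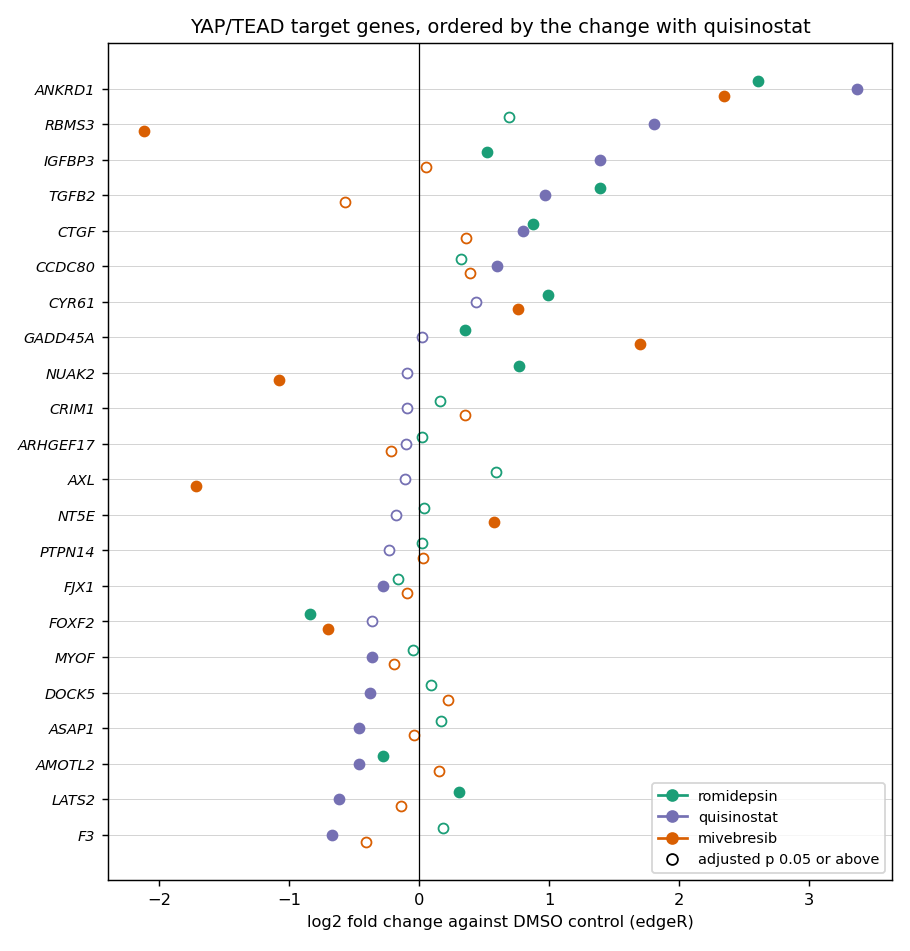
log2 fold change against DMSO (x axis, edgeR) of the 22 YAP/TEAD target genes (y axis) with each drug, ordered by the value with quisinostat, with open points where the adjusted p was 0.05 or above. ANKRD1 lies at 2.35 to 3.37 with every drug, and RBMS3 lies at 1.81 with quisinostat and -2.12 with mivebresib.

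The upstream Hippo genes changed in both directions as well, with 12 falls under quisinostat. Of 26 regulators, all tested, 8 rose and 6 fell with romidepsin, 5 rose and 12 fell with quisinostat and 3 rose and 5 fell with mivebresib. Against the shares of all tested genes given above, both counts with romidepsin and the falls with quisinostat were above the background, and the rises with quisinostat and both counts with mivebresib were below it. The split depends on scaling: with library totals 11 rose and 3 fell with romidepsin, 7 rose and 8 fell with quisinostat and 3 rose and 5 fell with mivebresib. The median log2 FC was 0.034 with romidepsin, -0.22 with quisinostat (-0.023 with library totals) and -0.025 with mivebresib.

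Among the core kinases, STK4 rose with romidepsin (0.55, adjusted p = 0.000924) and mivebresib (0.32, adjusted p = 0.00703) and was at -0.07 with quisinostat. STK3 rose with mivebresib (0.41, adjusted p = 0.00336). LATS1, the sister kinase of LATS2, held 28.8 and 32.7 CPM in control cells, 23.1 and 22.9 with romidepsin, 19.2 and 18.5 with quisinostat and 28.4 and 29.8 with mivebresib. It fell with both HDAC inhibitors (log2 FC -0.42, adjusted p = 0.00895, and -0.71, adjusted p = 0.000281) and was at -0.08, with an interval of -0.28 to 0.12, with mivebresib. Thus LATS1 and LATS2 both fell with quisinostat and went opposite ways with romidepsin, a pattern in which the LATS1 and LATS2 calls with romidepsin were lost without either romidepsin library. SAV1, the scaffold of the MST kinases, rose with all 3 drugs, from 112 and 100 CPM to 182 and 196 with romidepsin (0.83, adjusted p = 0.000353), 162 and 160 with quisinostat (0.60, adjusted p = 0.000543) and 132 and 127 with mivebresib (0.29, adjusted p = 0.0249). The mivebresib call of SAV1 was lost under 7 of 17 alternatives, including no filter on low counts.

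The tumour suppressors NF2 (merlin) and RASSF1 fell with all 3 drugs. NF2, which activates LATS at the membrane, was at 301 and 303 CPM in control cells and at 235 to 253 in all treated libraries, with log2 FC values of -0.30, -0.30 and -0.34. The NF2 call was lost under 7 of 17 alternatives with romidepsin, 4 with quisinostat and 2 with mivebresib. With library totals or upper-quartile factors it did not pass with romidepsin or with quisinostat, where it was -0.10 with library totals. With only the 4 libraries compared it passed with no drug, and the mivebresib call was also lost without mivebresib replicate 2. The RASSF1 calls were kept under all 17. RASSF1, a partner of the MST kinases, was at 41.5 and 35.7 CPM in control cells and at 19.8 to 22.6 in all treated libraries, with log2 FC values of -0.82, -0.87 and -0.88 (adjusted p at most 0.000822). WWC1 (KIBRA), which acts with NF2, rose with romidepsin (0.72, adjusted p = 0.000256) from 44.0 and 42.8 to 70.7 and 72.3 CPM and fell with mivebresib to 16.7 and 16.8 (-1.37, adjusted p = 5.09e-06). MAP4K4, a kinase that acts beside MST, fell with quisinostat (-0.45) and mivebresib (-0.46).

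AMOT, the founding angiomotin, rose from 17.6 and 18.8 CPM to 37.0 and 31.3 with romidepsin (0.90, adjusted p = 0.000723) and to 37.2 and 41.2 with quisinostat (1.10, adjusted p = 7.6e-05), while its relative AMOTL2 fell with both. With mivebresib AMOT was at -0.09, with an interval of -0.35 to 0.17. The LIM proteins LIMD1 and WTIP, which restrain LATS, fell with different drugs, LIMD1 with quisinostat (-0.84, adjusted p = 7.92e-05) and WTIP with romidepsin (-0.52, adjusted p = 0.00599, lost without romidepsin replicate 1). The large protocadherins and the polarity gene were low but rose with quisinostat. FAT4 went from 0.744 and 1.53 to 7.72 and 7.54 CPM with quisinostat (2.75, adjusted p = 6.17e-05). It also rose with romidepsin, to 2.51 and 2.07 CPM (1.01, adjusted p = 0.0319), a call lost under 8 of 16 alternatives, among them leaving out control replicate 1 or any drug library. With quisinostat DCHS1 went from 22 and 12 to 54 and 62 counts (1.59, adjusted p = 0.00999) and CRB3 from 3 and 2 to 12 and 15 counts (2.20, adjusted p = 0.00771). FAT4, DCHS1 and CRB3 are the 3 of the 26 regulators past the study's fold threshold with quisinostat, a share near the 12.2% of all tested genes. No gene of the list passed it with romidepsin or mivebresib, where 4.08% and 8.32% of all tested genes did. The DCHS1 call was lost without quisinostat replicate 2, and the CRB3 call without it, without control replicate 2 and with DESeq2.

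**Figure D5:**
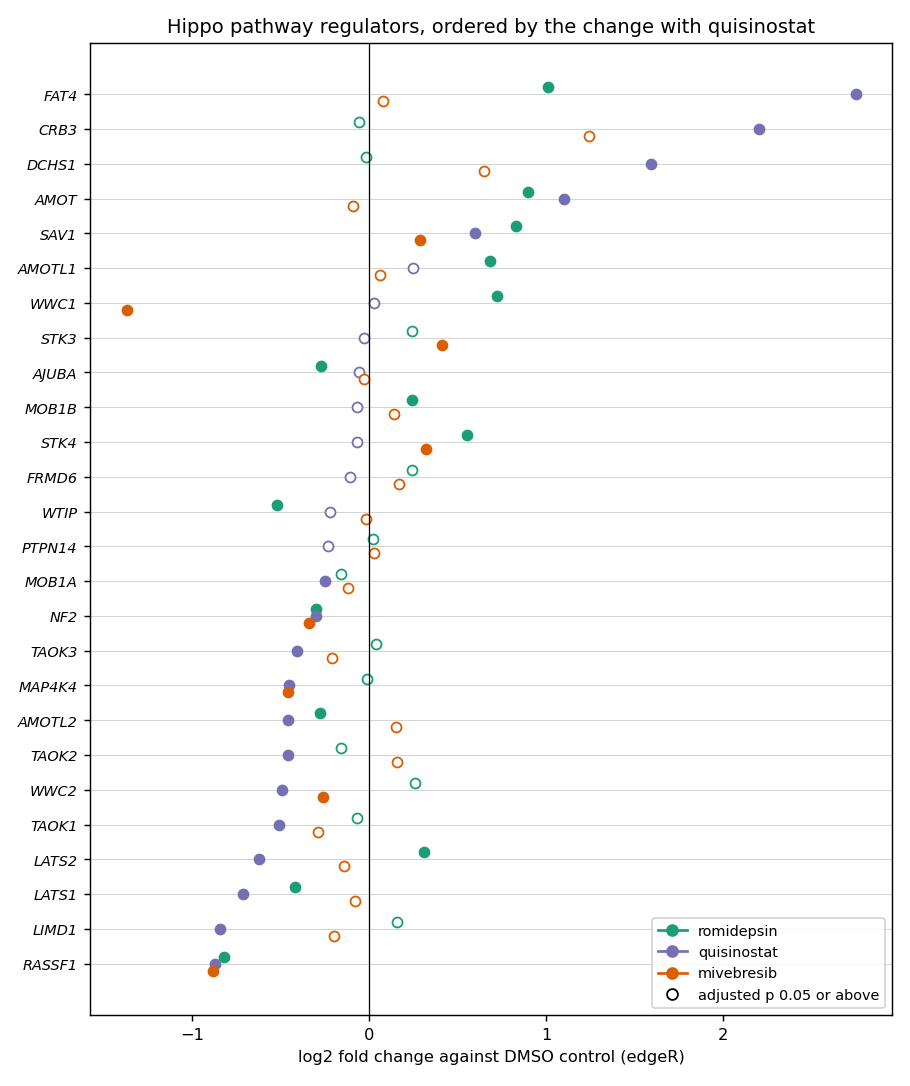
log2 fold change against DMSO (x axis, edgeR) of the 26 Hippo pathway regulators (y axis) with each drug, ordered by the value with quisinostat, with open points where the adjusted p was 0.05 or above. RASSF1 lies at -0.82 to -0.88 with every drug, and WWC1 lies at 0.72 with romidepsin and -1.37 with mivebresib.

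The VGLL proteins compete with YAP for TEAD or use it as a partner. VGLL4, the broadly expressed repressor, held 86.2 to 104 CPM over all libraries, and no drug passed, with log2 FC values of 0.09, -0.14 and 0.01. VGLL3 rose with romidepsin (1.30, adjusted p = 0.0219) and quisinostat (1.19, adjusted p = 0.0182) at 15 to 43 counts, and both calls were lost when a library of that drug was left out, the quisinostat call also without control replicate 2. VGLL1, at 0 or 1 count, and VGLL2, at 0 to 7 counts, were too low to test.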

How the data were processed

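RNA of MP38 cells was sequenced in paired-end, strand-specific libraries. The authors processed the reads with BioJupies on hg38 and deposited counts per gene symbol, log10(CPM + 1) values and a quantile-normalized score. The aligner, annotation and strand setting are not given in the sources used here. The log10 table equals log10(CPM + 1) of the counts, and the score, deposited by the authors without a named scale, was used only to repeat the calls with limma.

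Genes with low counts were removed with filterByExpr, libraries were scaled by TMM, and the counts were fitted by edgeR 4.0.16 (R 4.3.3) in 1 quasi-likelihood model of all 8 libraries with a coefficient per group and Benjamini-Hochberg adjustment over 15085 genes (biological coefficient of variation 0.0938). Intervals are 95% intervals of the fit. The model was run on simulated counts with known changes in the romidepsin group alone. That simulation held no shift in composition and no wider control pair, so it does not test the model under those. DESeq2 1.42.0 and limma-voom (limma 3.58.1) were alternatives, with other scalings, filters, samples and a replicate block. Gene lengths and positions came from GENCODE 29 and promoter windows from RefSeq. CPM per kb used all merged exons.

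All 10 genes are described. From the longer lists, the up to 4 largest rises and falls per drug among genes that passed are named. Also named are LATS1, NF2, VGLL4, genes too low to test or at no more than 3 counts in a group, and genes that overlap the 10 and have counts. Opposite-strand genes without counts of their own overlap exons of WWTR1 (795 bases), YAP1 (628) and CTGF (195), and reads from them could not be checked. Some genes planned for these lists are not reported here. The genes and lists were chosen with earlier results of these data known, so no p over a list is given. Libraries were grouped by their labels, and no pair of replicates was identical.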

Additional observations from a re-analysis of the deposited data

How the results depend on the processing

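Of the 60 log2 values of the 10 genes (6 comparisons), all 60 kept direction and side of the threshold with RLE factors and with no filter on low counts, and 58 with DESeq2 or limma-voom. Library totals alone kept 48. The quantile-normalized score gave the fewest calls: with romidepsin 1 of the 10 genes rose and 0 fell, with quisinostat 0 fell and with mivebresib 1 fell. On it, 2 targets and 4 regulators passed with romidepsin, 5 and 2 with quisinostat and, of regulators, 1 with mivebresib. Of the 10 genes, 2 differed between quisinostat and romidepsin, 0 between mivebresib and romidepsin and 3 between mivebresib and quisinostat. The score was fitted without taking logs, so its calls are not like for like with those on the counts. The cause of the lower number of calls was not tested.

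With DESeq2, limma-voom, library totals, upper-quartile factors or a filter at a mean CPM of 5, 2 of the 10 genes rose with quisinostat and 2 with mivebresib, and with that filter 7 targets passed with quisinostat. Library totals, upper-quartile factors or only the 4 libraries compared left 1 gene that fell with romidepsin. The last also left 2 that rose, 6 targets and 7 regulators with romidepsin and 4 regulators with mivebresib. At an adjusted p under 0.01, 2 rose and 1 fell with romidepsin and 4 differed between mivebresib and quisinostat.

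Values that changed sign were small and uncalled. Against control, these were TEAD2 with quisinostat (0.01, library totals), TEAD3 with romidepsin (0.03, library totals; 0.04, upper quartile; 0.02, filter at 5 CPM), VGLL4 with quisinostat (0.06, library totals) and VGLL4 with mivebresib (0.00, no filter). Between drugs they were CTGF in quisinostat minus romidepsin (0.05, library totals) and WWTR1 in mivebresib minus quisinostat (-0.16, -0.07 and -0.05, library totals, upper quartile and filter at 5 CPM).

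Leaving out each library in turn, where a lone library is assumed to vary like the other groups, gave 2 to 4 risers and 1 to 3 falls among the 10 genes with romidepsin, and 1 to 2 risers each with quisinostat and mivebresib. It gave 4 to 8 genes that differed between mivebresib and quisinostat, 4 to 11 targets and 6 to 17 regulators with romidepsin, 5 to 11 regulators with mivebresib and 7 to 15 targets with quisinostat. The lowest counts with romidepsin came without a romidepsin library and those with quisinostat without quisinostat replicate 1. Ranges that crossed 0 against control were TEAD1 with mivebresib (-0.04 to 0.11), TEAD2 with quisinostat (-0.39 to 0.03), TEAD3 with quisinostat (-0.01 to 0.19) and romidepsin (-0.14 to 0.06), LATS1 with mivebresib (-0.17 to 0.01) and VGLL4 with mivebresib (-0.06 to 0.07). Between drugs they were CTGF in quisinostat minus romidepsin (-0.29 to 0.06), TEAD2 (-0.10 to 0.08) and TEAD3 (-0.18 to 0.01) in mivebresib minus romidepsin and WWTR1 in mivebresib minus quisinostat (0.00 to 0.04).

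Replicate numbers were shared between groups but did not pair the libraries: deviations of same-numbered libraries correlated at -0.162 to 0.158 over the 6 pairs of groups. With a replicate block, 58 of 60 values kept their call, TEAD1 in mivebresib minus romidepsin no longer passed, and the TEAD2 difference of mivebresib minus romidepsin was 0.00 with the sign turned. Low counts limit genes such as CRB3 and RBMS3, with as few as 2 counts in a library, and each group has only 2 libraries.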
